A study of Caenorhabditis elegans with 2 samples.

Results

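The 6 genes ttx-3, cho-1, unc-17, mgl-1, ins-1 and gcy-28 are identity genes of the AIA interneurons of Caenorhabditis elegans. Binding of the homeodomain protein UNC-39 was examined at these genes, and their use in other cells was not. They were taken by name from 19973 protein-coding genes, and all 6 names were found in the annotation. The data come from chromatin immunoprecipitation followed by sequencing (ChIP-seq) of eGFP-tagged UNC-39 in strain OP186, which carries the transgene insertion wgIs186 in an unc-119(ed3) background on chromosome III. The material was whole mixed-stage embryos of both sexes, in 2 biological replicates that form 1 group. AIA cells were not isolated, so a site used in AIA alone and a site used weakly in many cells cannot be told apart. For the same reason, binding limited to AIA may go undetected, and a gene without a summit is not shown to be unbound there. The sequencing depth is unknown, because the deposited lists hold peaks and no read counts.

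AIA is a pair of interneurons in the head that receives input from chemosensory neurons and takes part in the choice between forward movement and turning. Its identity depends on terminal selectors, transcription factors that switch on the genes for transmitter, receptors and neuropeptides of a neuron type and keep them on. TTX-3, a LIM homeodomain protein, is such a selector in AIA and in the related AIY interneurons, and UNC-39, a homeodomain protein of the Six4 and Six5 type, is known to be required for AIA identity. Among the effector genes, unc-17 encodes the vesicular acetylcholine transporter and cho-1 the choline transporter of the nerve terminal. The gene mgl-1 encodes a metabotropic glutamate receptor, gcy-28 a receptor-type guanylate cyclase, and ins-1 an insulin-like peptide.

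For each gene, summits were taken in the gene body and in 5 kb on each side. The 4 lists on genome build ce11 were the called regions, which passed the irreproducible discovery rate (IDR) threshold of the authors (267 regions), and 3 relaxed lists that contain background by design. The relaxed lists held 9046 regions for the pooled replicates, 15880 for replicate 1 and 30000 for replicate 2. Each count was set beside the number that an even spread of the list over the 6 nuclear chromosomes (100272607 bp) would place in the same length. The windows of the 6 genes covered 113446 bp with a median of 15682 bp, against 12026 bp for all protein-coding genes.

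No called UNC-39 region lay at any of the 6 genes. The count was 0 of 6, against 3.54% of all protein-coding genes, and an even spread of the 267 called summits would have placed 0.302 summits in the 6 windows together. At these list lengths a count of 0 therefore differs from an even spread by less than 1 summit. In the pooled list, 3 of the 6 genes had a summit (cho-1, unc-17 and gcy-28), against 63.4% of all genes. The 3 without one were ttx-3, mgl-1 and ins-1. In replicate 1, 5 of 6 had a summit, all but ins-1, against 83.7% of genes. In replicate 2 all 6 did, against 95.7%. The 5 genes with a summit in each replicate list stood against 81.6% of genes. These shares are near the background. In the pooled list 3 of 6 is below it, but 1 gene more would place the share above 63.4%. With 10 kb on each side, 1 of 6 (ttx-3) had a called summit, against 5.97% of all genes, and 5 of 6 a pooled summit, against 80.8%. In the strongest 9046 regions of each replicate list, 3 of 6 had a summit in both, against 47.4%.

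The summed counts were at or below the even spread in each relaxed list. The pooled list placed 7 summits at the 6 genes against 10.2 from an even spread, a ratio of 0.684. Replicate 1 placed 17 against 17.97 (ratio 0.946), and replicate 2 placed 29 against 33.9 (ratio 0.854). The median ratio over the 6 genes was 0.337 in the pooled list, 0.867 in replicate 1 and 0.907 in replicate 2, against 0.896, 0.960 and 0.945 over all protein-coding genes in the same lists. In the pooled list the quartiles over all genes were 0 and 1.66. There 4 of the 6 members had a ratio below 1, against 62.2% of all genes. With 1 group and no list for a control, no test over samples was possible, and these ratios are descriptions.

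**Figure D1:**
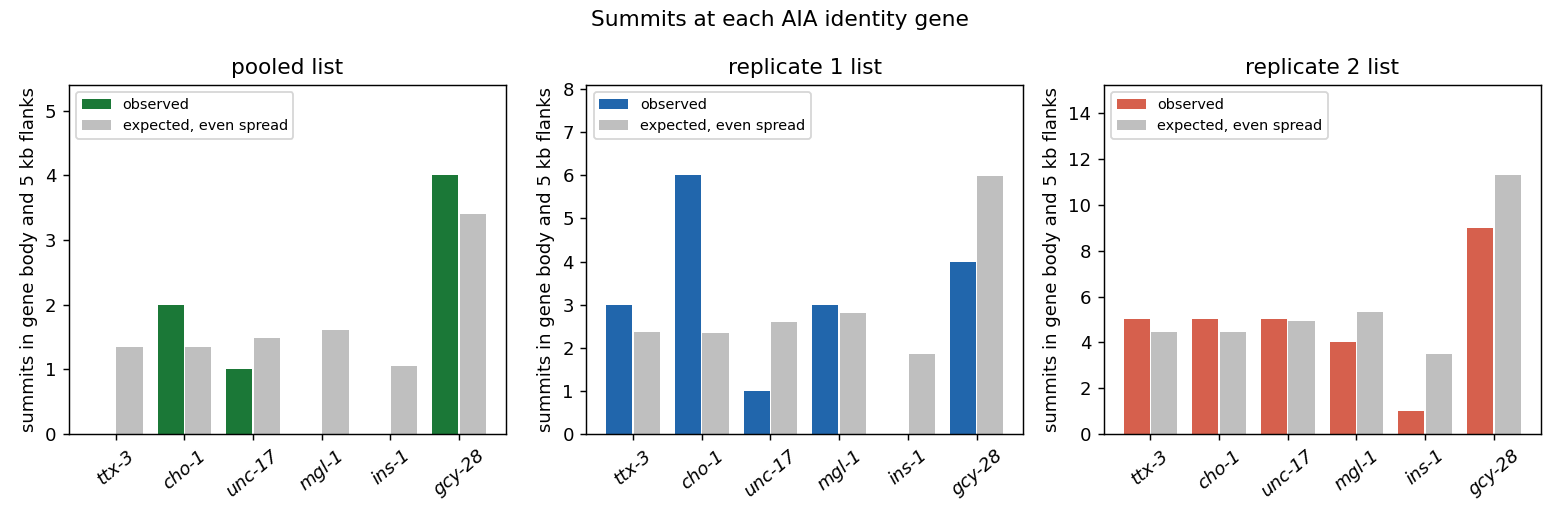
Number of summits (y axis) in the body and 5 kb flanks of each AIA identity gene (x axis) in the pooled, replicate 1 and replicate 2 lists, with observed counts as coloured bars and the even-spread count as grey bars. The widest gap above the even spread is at cho-1 in replicate 1, with 6 summits observed and 2.35 expected, while ins-1 holds 1 summit in all 3 lists together.

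Some regions at these genes are printed here, read on the plus strand from the RefSeq copy of WBcel235, the assembly that ce11 names. Each spans 201 bp centred on a summit, and capitals mark a match, on either strand, to one of the 5 motifs searched. The first is the pooled region past the 3′ end of unc-17, inside its neighbour cha-1. Each replicate had a summit within 200 bp of the pooled summit, but these lay 293 bp from each other. The next pair lies past the 3′ end of cho-1, first where the summits of the replicates lay 38 bp apart. The second of the pair is at a pooled summit beside GAGACGCA, a sequence reported earlier at the called regions of these data. Then come the Six4-type matches near summits, at cho-1 and ttx-3, and the only summit at ins-1.
unc-17, pooled summit, chrIV:3614392-3614592: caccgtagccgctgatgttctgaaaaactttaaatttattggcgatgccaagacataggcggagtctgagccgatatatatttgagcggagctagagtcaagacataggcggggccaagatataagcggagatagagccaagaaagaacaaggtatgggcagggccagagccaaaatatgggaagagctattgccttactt
cho-1, replicate 1 summit past the 3′ end, chrIV:13209219-13209419: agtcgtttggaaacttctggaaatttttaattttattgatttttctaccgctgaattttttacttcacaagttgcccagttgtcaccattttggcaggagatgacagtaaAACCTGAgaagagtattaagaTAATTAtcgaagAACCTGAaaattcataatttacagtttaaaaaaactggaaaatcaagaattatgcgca
cho-1, pooled summit past the 3′ end, chrIV:13208770-13208970: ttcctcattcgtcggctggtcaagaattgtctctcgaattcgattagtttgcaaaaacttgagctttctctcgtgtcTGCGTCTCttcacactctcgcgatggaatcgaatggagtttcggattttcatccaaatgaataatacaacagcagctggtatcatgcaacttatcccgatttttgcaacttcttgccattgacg
cho-1, replicate 1 summit upstream, chrIV:13219393-13219593: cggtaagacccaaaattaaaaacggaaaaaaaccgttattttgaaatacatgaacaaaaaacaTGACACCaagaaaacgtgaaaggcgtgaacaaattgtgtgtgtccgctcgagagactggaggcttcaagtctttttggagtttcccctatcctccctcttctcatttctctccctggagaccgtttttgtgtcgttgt
ttx-3, replicate 2 summit in a coding exon, chrX:11767438-11767638: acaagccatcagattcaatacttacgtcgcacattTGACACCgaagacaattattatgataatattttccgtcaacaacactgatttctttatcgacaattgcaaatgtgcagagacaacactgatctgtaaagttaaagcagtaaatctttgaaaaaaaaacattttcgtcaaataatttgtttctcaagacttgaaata
ins-1, replicate 2 summit in the promoter, chrIV:10436406-10436606: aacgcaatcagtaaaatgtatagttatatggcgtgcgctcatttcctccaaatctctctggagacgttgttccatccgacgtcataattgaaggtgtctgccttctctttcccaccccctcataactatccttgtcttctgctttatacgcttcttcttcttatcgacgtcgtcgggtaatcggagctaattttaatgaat

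The selector gene ttx-3 (WBGene00006654, chromosome X, 11764456 to 11769378, minus strand) had no pooled summit, and its summits in the replicates did not meet. Replicate 1 had 3 summits in the window against 2.36 expected, and replicate 2 had 5 against 4.46. The strongest in replicate 1 (signal 16.2, rank 2332 of 15880) lay 2315 bp past the 3′ end of ttx-3, in an intron of the convergent neighbour lact-7. The strongest in replicate 2 (signal 9.83, rank 8641 of 30000) lay in an intron of ttx-3, 1547 bp downstream of the second annotated transcription start site (TSS). The next in order were a replicate 1 summit in a coding exon of lact-7 (signal 12.2, rank 7813) and a replicate 2 summit in an intron of lact-7 (signal 7.37, rank 19007). The shortest distance between summits of the replicates was 363 bp. Signals are the authors' own peak scores and compare within a list only. No summit of any list lay upstream of ttx-3 within 5 kb.

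The transmitter gene cho-1 (WBGene00000501, chromosome IV, 13209730 to 13214566, minus strand) had the highest ratio to the even spread among the members in replicate 1, with 6 summits against 2.35. Replicate 2 had 5 against 4.44 and the pooled list 2 against 1.34. Both pooled summits lay past the 3′ end. The stronger (signal 25.01, rank 2585 of 9046) lay 4435 bp past it, in intergenic sequence 1158 bp upstream of the TSS of ced-3, a caspase gene of programmed cell death. Replicate 2 had a summit 17 bp from it (signal 13.0, rank 3007), while the nearest replicate 1 summit was 3782 bp away. The weaker (signal 21.8, rank 4642) lay 860 bp past the 3′ end and 61 bp inside C48D1.9 from one of its start sites. Replicate 2 had a summit 14 bp from it (signal 12.8, rank 3240) and replicate 1 a summit 207 bp from it (signal 12.7, rank 6800). The strongest replicate 1 summit at the gene (signal 12.9, rank 6377 of 15880) lay 4927 bp before its start. The TSS nearest to that summit was of C48D1.5, 2464 bp away. In the promoter of cho-1 only replicate 1 had a summit, at a distance of 693 bp from the TSS (signal 9.90, rank 15282).

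The other transmitter gene, unc-17 (WBGene00006756, chromosome IV, 3618259 to 3624699, minus strand), shares its first exon with cha-1, which encodes the enzyme that makes acetylcholine. The annotated start of cha-1 differs from that of unc-17 by 2 bp. The pooled list had 1 summit against 1.48 expected, 3767 bp past the 3′ end of unc-17 in an intron of cha-1 (signal 26.2, rank 2095 of 9046). That summit lay 1420 bp upstream of the TSS of ltah-1.2, the nearest to it. In replicate 2 a summit 114 bp from it had a signal of 18.6 and rank 635 of 30000, the highest relative rank of any summit at the 6 genes. In replicate 1 a summit 179 bp from it had a signal of 11.6 and rank 9336 of 15880. These replicate summits lay 293 bp apart, beyond the 200 bp limit for a match between replicates, and both had ltah-1.2 as the nearest TSS. The replicate 2 summit was within the strongest 2.12% of its list, and the replicate 1 summit in the weaker part of its own (58.8%). The second strongest replicate 2 summit (signal 8.51, rank 13320) lay in a coding exon of unc-17, 1579 bp from its start. The summit closest to the shared start of unc-17 and cha-1 was one of replicate 2 in an intron, 850 bp inside unc-17 (signal 6.39, rank 25531).

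The receptor gene mgl-1 (WBGene00003232, chromosome X, 9968517 to 9976306, minus strand) had no pooled summit, against 1.605 expected. Replicate 1 had 3 summits against 2.82 expected and replicate 2 had 4 against 5.32. The strongest in replicate 1 (signal 16.4, rank 2191 of 15880) lay 55 bp past the 3′ end of mgl-1, in the 3′ UTR of the convergent gene pssy-1. The strongest in replicate 2 (signal 9.05, rank 11172) lay 5534 bp downstream of the gene's start, in an exon of a noncoding RNA gene. The second strongest of each lay at pssy-1, in its promoter for replicate 1 (signal 11.3, rank 10109) and in an intron for replicate 2 (signal 7.23, rank 19842). No summit of one replicate came closer than 700 bp to one of the other. The 4 annotated start sites had 1 summit within 1000 bp on either side, in replicate 1, at 553 bp downstream of the second of them (signal 10.9, rank 11251).

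The peptide gene ins-1 (WBGene00002084, chromosome IV, 10436701 to 10438412, plus strand) had the fewest summits. The pooled and replicate 1 lists held none, against 1.06 and 1.85 expected, and replicate 2 held 1 against 3.50. That summit was in the promoter, 195 bp before the TSS (signal 7.13, rank 20487 of 30000). In replicate 1 the nearest summit was 15812 bp away.

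The cyclase gene gcy-28 (WBGene00020131, chromosome I, 4481198 to 4508940, plus strand) is the longest member at 27743 bp and held the member region with the highest pooled signal. Its 4 transcripts start at 4 sites. The T01A4.1d.1 transcript, whose d isoform is the one known for its role in AIA, starts at the 5′ end of the gene, followed by T01A4.1c.1 at 10502 bp, T01A4.1a.1 at 14194 bp and T01A4.1b.1 at 21411 bp. The pooled list had 4 summits against 3.40 expected, replicate 1 had 4 against 5.98 and replicate 2 had 9 against 11.3. The strongest pooled summit (signal 28.3, rank 1502 of 9046) lay 984 bp upstream of the start of the c transcript. At that place replicate 1 had a summit at the same base (signal 14.0, rank 4462) and replicate 2 a summit 3 bp away (signal 11.9, rank 4240). It was the closest match between the libraries at any of the 6 genes.

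A pair of pooled summits lay 412 bp and 200 bp upstream of the start of the gcy-28 a transcript (signals 22.6 and 21.2, ranks 3985 and 5208). Replicate 2 had 1 summit for the pair, 46 bp from the first and 166 bp from the second, and the nearest replicate 1 summit was 4264 bp away. The first of them lay inside a GA repeat of 130 bp. Only 10 of 7137 GA runs in the genome were at least that long, where a run is any merged stretch of GAGAGAGA matches on either strand. In its 201 bp window 61.8% of the 24-base words occurred more than once in the genome, against a median of 0 over the pooled list. Copies within the repeat itself count, so this share does not show copies at other loci. The placing of reads from repeated words is not stated in the labels or files, and the part of the repeat in this summit was not tested. The summit closest to the start of the d transcript in any list was one of replicate 1, 4729 bp inside the gene (signal 11.5, rank 9633).

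The strongest summits of each replicate at gcy-28 lay elsewhere. In replicate 1 it was in an intron 5615 bp from the gene's start (signal 15.9, rank 2537 of 15880). In replicate 2 it was in a coding exon, 331 bp past the a start (signal 14.1, rank 2085 of 30000), and the second strongest was the one in the GA repeat (signal 11.96, rank 4195). No replicate 1 summit lay past the c start.

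**Figure D2:**
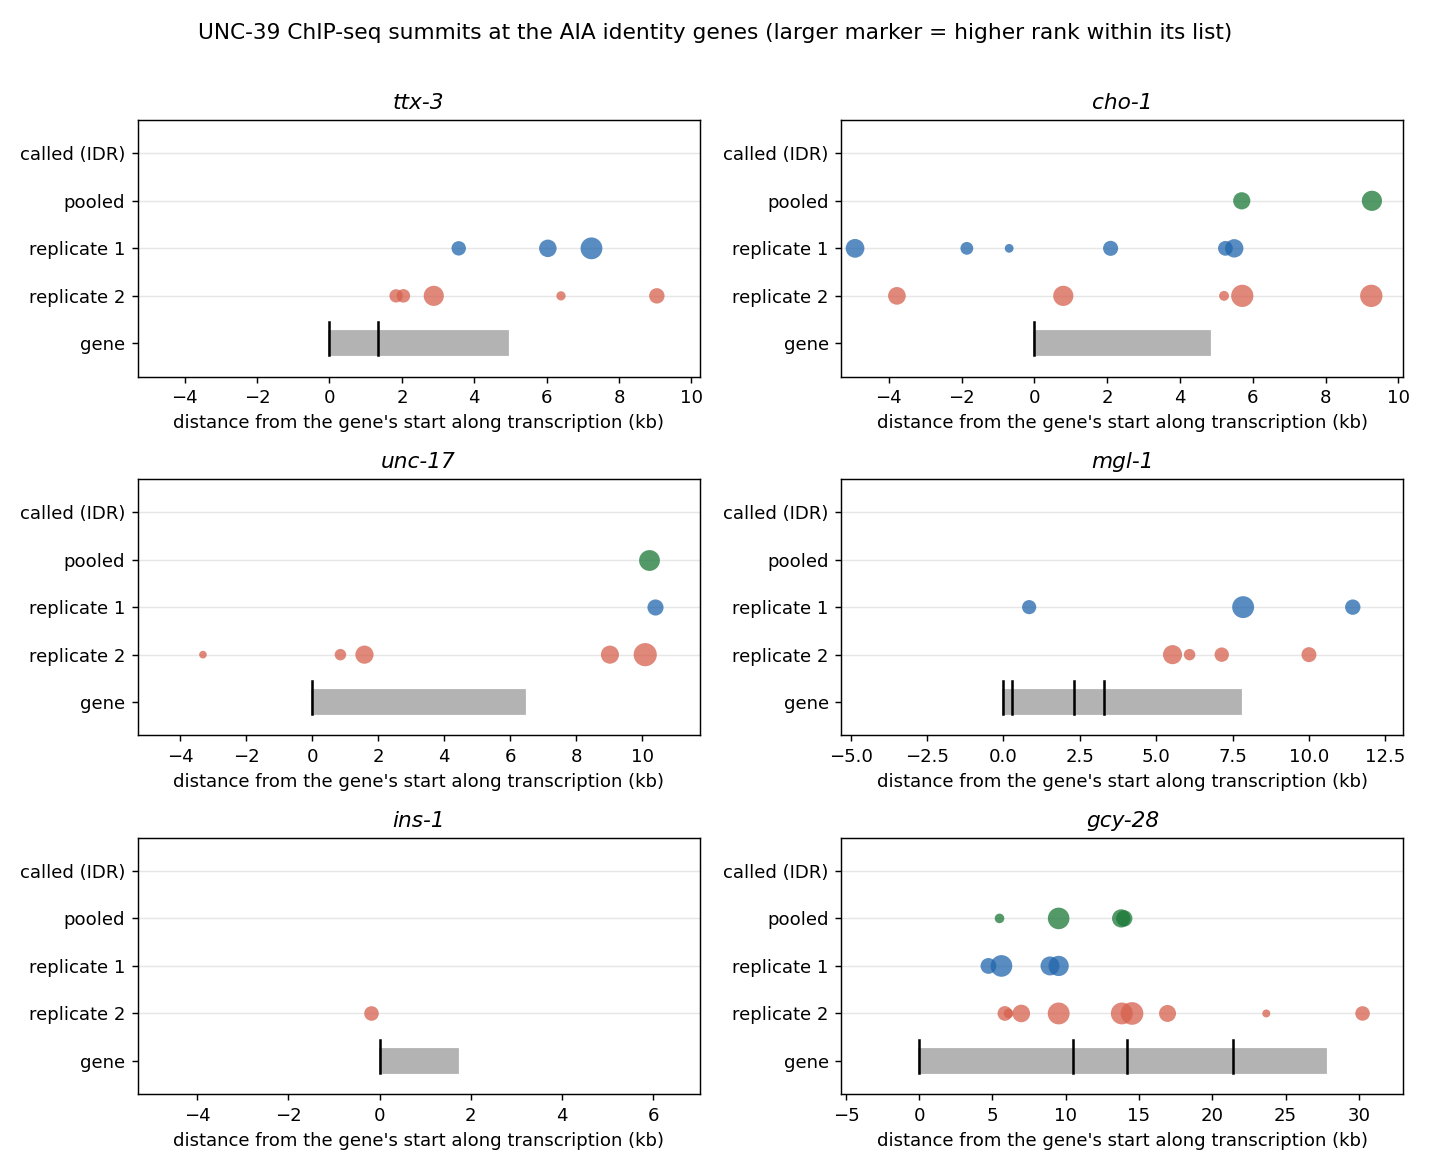
Summits of the called (IDR), pooled, replicate 1 and replicate 2 lists along each AIA identity gene, with distance from the gene's start along transcription in kb on the x axis, the gene as a grey bar, annotated start sites as black lines, and larger markers for higher ranks within a list. The called row is empty for all 6 genes, and at gcy-28 the 3 relaxed lists meet about 1 kb before the second start site (984 bp in the pooled list).

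The lowest of the 267 called regions ranked 267 of 9046 in the pooled list, so member regions without a call had to lie below it. In that list the 7 member regions had signals from 18.7 to 28.3 with a median of 22.6. The median over the 9046 pooled regions was 21.96, and the lowest called signal was 44.4. The strongest, at gcy-28, reached 63.7% of that lowest called signal. Their −log10 q values, as deposited, ran from 0.0221 to 0.350, against at least 2.03 in the called regions. None of the 7 was in the strongest 10% of the pooled list, where 10.6% of all protein-coding genes had a summit. By strongest pooled signal 16.2% of all genes stood above gcy-28, 21.3% above unc-17 and 25.5% above cho-1.

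In the replicate lists the member summits had a median signal of 11.6 in replicate 1, against 12.1 over that list, and of 7.37 in replicate 2, against 8.12. None of 17 was in the strongest 10% of replicate 1. In replicate 2, 2 of 29 were, the summit in cha-1 next to unc-17 and the one in a coding exon of gcy-28. The summit next to unc-17, at rank 635, ranked above 47 of the 265 replicate 2 summits found within 200 bp of a called summit, whose median rank was 169. In replicate 1 the summit nearest to the same place, at rank 9336, ranked above 1 of 265, whose median rank was 150.

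**Figure D3:**
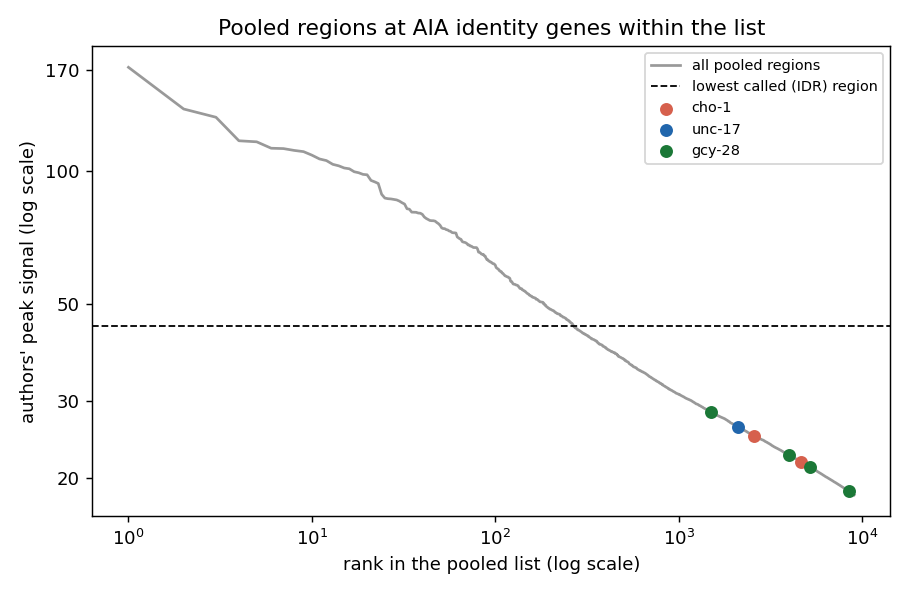
Signal of each region of the pooled list (y axis, log scale) against its rank (x axis, log scale), with the 7 regions at cho-1, unc-17 and gcy-28 as coloured points and the lowest called signal as a dashed line. The member regions lie between ranks 1502 and 8429, all below the dashed line at 44.4, which follows from the absence of called regions at these genes.

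The share of summits with a match in the other replicate was lower at these genes than over the lists, with no test of the difference. A replicate 2 summit lay within 200 bp of 2 of 17 member summits of replicate 1 (11.8%), against 35.3% of all replicate 1 summits. Of the genome, 11.7% lies within 200 bp of a replicate 2 summit. In the other direction 2 of 29 matched (6.90%), against 18.9% of the list and 6.22% of the genome. The place of the members between genome and list moved with the limit. Within 100 bp the members' shares were again 11.8% and 6.90%, against 24.5% and 12.9% of the lists and 6.01% and 3.18% of the genome. Within 400 bp they were 35.3% and 20.7%, against 46.1% and 25.4% of the lists and 22.3% and 12.1% of the genome. The matches were the pair at the gcy-28 c start, 3 bp apart, and the pair past the 3′ end of cho-1, 38 bp apart (ranks 10693 and 27587). The cho-1 pair had C48D1.9 as the gene of the nearest TSS. By gene, 2 of 6 had a matched pair, against 47.3% of all genes. Of the 7 pooled member summits 2 had both replicates within 200 bp, at unc-17 and gcy-28, against 52.1% of the pooled list. For 6 of the 7 a replicate 2 summit was that close, against 80.0% of the pooled list. A single such summit served both regions before the gcy-28 a start. For 3 of the 7 a replicate 1 summit was that close, against 71.0% of the pooled list.

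**Figure D4:**
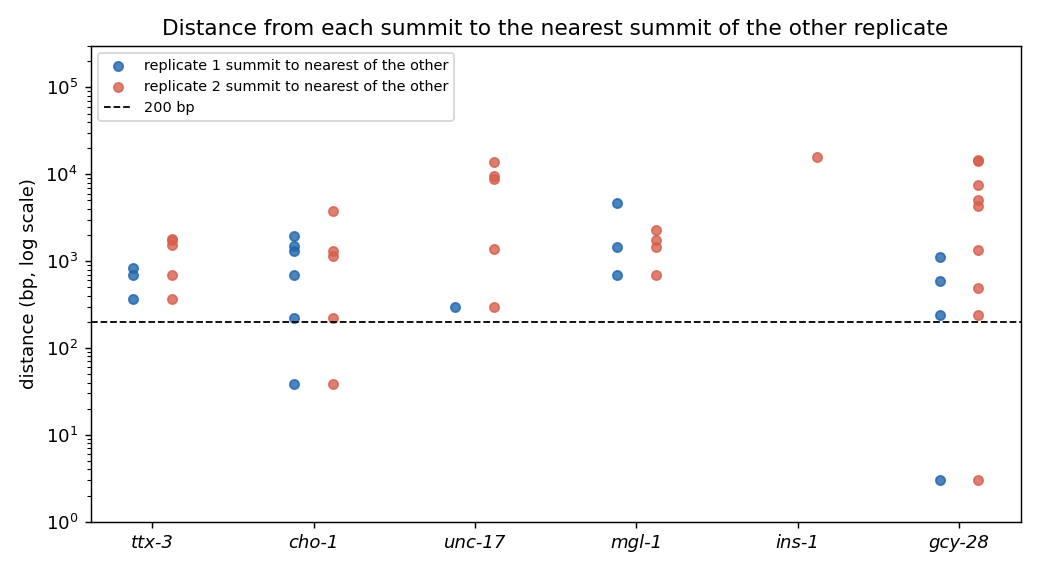
Distance in bp (y axis, log scale) from each summit of one replicate to the nearest summit of the other, by AIA identity gene (x axis), with the 200 bp limit as a dashed line. Points below the line are found at cho-1 (38 bp) and gcy-28 (3 bp) only.

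The upstream flanks held fewer summits than the even spread in the 3 relaxed lists. The 5 kb upstream of the 6 genes held 0 pooled summits against 2.71 expected, 3 of replicate 1 against 4.75 and 3 of replicate 2 against 8.98. The downstream flanks held 3 against 2.71, 7 against 4.75 and 9 against 8.98, and the gene bodies 4 against 4.82, 7 against 8.46 and 17 against 15.99. The pooled summits within 1000 bp upstream of a member's own start site numbered 3, all at internal starts of gcy-28. By annotation, promoters held 4 of 7 pooled member summits (57.1%), against 27.96% of the list, and introns 2 (28.6%), against 22.5%. Coding exons held 0 of the 7, against 23.6%. In replicate 1 promoters held 5 of 17 (29.4%), against 27.2%, introns 7 (41.2%), against 24.3%, and coding exons 2 (11.8%), against 21.3%. In replicate 2 promoters held 6 of 29 (20.7%), against 24.2%, introns 14 (48.3%), against 23.5%, and coding exons 5 (17.2%), against 28.6%. The 201 bp windows at the pooled member summits had a median GC content of 46.8%, against 40.8% ± 6.998 (SD over 9046 regions) in the pooled list. In replicate 1 it was 40.8%, against 38.3%, and in replicate 2 it was 38.3%, against 39.8%.

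The Six4-type sequence TGACACC, searched like the other motifs within 100 bp of the summits, was at none of the 7 pooled member summits. Its share was 3.47% over the pooled list and 4.87% over the called regions. TGACACC was at 1 of 17 in replicate 1, against 2.96% of that list, 4927 bp upstream of cho-1 and nearer to the C48D1.5 start. In replicate 2 it was at 1 of 29, in the coding exon of ttx-3, against 2.78%. The whole windows held 8 copies against 11.5 from the genome average. TCAGGTT, the start of the MEF3 motif, which vertebrate relatives of UNC-39 bind in muscle genes, was at 1 summit in each replicate list, against 2.32% and 2.45% of the lists. These were the matched pair past the 3′ end of cho-1, whose windows share 2 copies of it and 1 copy of the homeodomain core TAATTA, all printed above. The TSS nearest to the pair was of C48D1.9, 347 bp from the replicate 1 summit and 309 bp from the replicate 2 summit. GAGACGCA was at 1 of 7 pooled member summits, the one at the C48D1.9 start past cho-1, against 3.53% of the pooled list and 10.9% of the 267 called regions. It was searched because it had been reported at those called regions, so its share there is no independent result. GAGAGAGA was at 2 of 7, both at gcy-28, against 4.90% of the pooled list and 12.7% of the called regions. The gcy-28 window held 11 GA runs against 2.69 from the genome average, unc-17 held 4 against 1.17 and the other 4 genes held none. These matches are descriptions, and with 7, 17 and 29 summits a single match moves a share by several percentage points.

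The called regions nearest to the 6 genes had the start sites of other genes as their nearest TSS, and which gene such a region serves was not tested. The closest to ttx-3 lay 6.51 kb past its 3′ end, on the far side of the lact-7 start (signal 49.6, intergenic, 1164 bp from the lact-7 TSS). For cho-1 it was 26.1 kb upstream, at the promoter of the ribosomal protein gene rpl-12 (signal 68.7). For mgl-1 it was 35.97 kb away, at the promoter of tsp-21, a tetraspanin gene (signal 52.8). The distances for unc-17, gcy-28 and ins-1 were 93.4, 183 and 383.5 kb. The median over all 6 genes was 64.7 kb, against 142.8 kb over all protein-coding genes, and 1 of 6 lay within 20 kb, against 10.6%.

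Of 17 other genes, unc-39 itself and genes related to the 6, 0 had a summit in the called list and 11 had one in the pooled list, against 63.4% of all genes, with 23 pooled summits against 24.9 expected. Of 5 cholinergic genes 4 had a pooled summit, with 6 summits against 7.74 expected, and cha-1 shares its only one with unc-17. The acetylcholinesterase genes ace-2, ace-3 and ace-4 had strongest signals of 20.9, 21.7 and 21.98, and ace-1 had none. Of 7 genes of the AIY battery that TTX-3 regulates 6 had a pooled summit, with 15 summits against 9.98 expected. One of these was in the strongest 10% of the list, at kal-1, the anosmin gene (signal 38.1, rank 465 of 9046). The homeobox gene ceh-10, the partner of ttx-3 in AIY, had 2 summits with a strongest signal of 22.4, and ceh-23 had none. Of the other genes used in AIA, the glutamate receptor gene glr-2 had 2 (strongest 21.04) and the neuropeptide gene flp-2 none. The receptor paralogs mgl-2 and mgl-3 had none either, against 3.61 expected for the pair. The gene of the immunoprecipitated protein is unc-39 (chromosome V, 14373074 to 14375881, plus strand). It had no summit in any of the 4 lists, against 1.16, 2.03 and 3.83 expected in the pooled, replicate 1 and replicate 2 lists. Of all protein-coding genes, 63.4%, 83.7% and 95.7% had a summit in the same lists. The strain carries a transgene for the tagged protein, and its effect on peak calling at unc-39 was not tested. The lack of summits there therefore does not show that UNC-39 is absent from its own gene.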

How the data were processed

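ChIP-seq peak lists of 2 biological replicates in 1 group were used, in coordinates of build ce11. Per the notes deposited beside the lists, relaxed lists were made from the replicate alignments and control data, and the called (IDR) list from those. No source used here names the aligner, the peak caller or the settings. The signal column holds the deposited score of the authors' peak caller for each peak, with no scaling between libraries recorded. The deposited −log10 q column was used as another ranking. The 4 lists on ce10 were not used, because the annotation at hand was of ce11 (Ensembl release 115, WBcel235).

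A summit is the peak start plus the deposited offset, printed 1-based. The expected count is list length times window length over the length of the 6 nuclear chromosomes. Promoters were 1000 bp before the TSS of protein-coding genes, and took precedence over UTRs, exons, introns and intergenic sequence when each summit was given 1 class. Motifs and GC content were read in 201 bp windows. Words of 24 bases were counted over both strands. All 6 members are named, with the 2 strongest summits of each relaxed list considered for each. The members, gene lists and motifs were chosen with earlier results of these data known. No test was run, since no comparison between sample groups exists. Counting and matching were tested on simulated data. Python 3.11.15, numpy 2.4.6 and pandas 2.3.3 were used. Alternatives were other windows, peak overlap in place of summits, shorter lists, expectation by chromosome, ranking by q, other match distances and leaving out a replicate.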

Additional observations from a re-analysis of the deposited data

How the results depend on the processing

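With 10 kb on each side in place of 5 kb, 1 of 6 genes had a called summit (ttx-3, the region 6.51 kb away), against 5.97% of all protein-coding genes at that width, a ratio of 2.17 to the even spread, and 5 of 6 had a pooled summit, against 80.8%. In the strongest 9046 regions of each replicate list, 3 of 6 genes had a summit in both lists, against 47.4%. In the 267 strongest regions of the pooled, replicate 1 and replicate 2 lists the ratio was 0 each time, where fewer regions leave an expectation under 1 summit. For the pooled list this repeats the count of called summits, since the lowest called region ranked 267 in it. Within 400 bp, 35.3% of the replicate 1 and 20.7% of the replicate 2 member summits were matched, against 46.1% and 25.4% of the lists and 22.3% and 12.1% of the genome. Leaving out either replicate leaves a single list, with 5 to 6 genes holding a summit, which says nothing about the stability of the count over both lists. Under the other alternatives all counts and ratios stayed within 1.5 times the values given, and the 14 strongest ranks by gene and list did so when ranked by q. No paired analysis was possible because there is only 1 group. Depth is unknown, the relaxed lists contain background by design, and list length limits what a count of 0 can show.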
